A study of Mus musculus with 6 samples.

Results

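The 7 genes that encode the subunits of the NMDA receptor, Grin1, Grin2a, Grin2b, Grin2c, Grin2d, Grin3a and Grin3b, were read from a table of 23067 genes by their gene symbols, and all 7 were found. The tissue was dorsal striatum, taken on postnatal day 21. In 3 samples both copies of Lrrk2 carried G2019S, a knock-in change linked to Parkinson's disease (genotype Lrrk2G2019S/G2019S), and 3 were wild type for the gene (Lrrk2WT/WT). Each sample gave 1 RNA sequencing library, and the table gives 1 FPKM value per gene and library, a unit that corrects the number of fragments for transcript length and sequencing depth. The labels name no strain, litter or source of the mice and do not say whether each sample was another animal, so the p-values speak only for the spread among these samples, part of which may be technical.

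NMDA receptors are glutamate-gated channels that open only when a co-agonist, glycine or D-serine, is also bound and the membrane is depolarised enough to expel magnesium from the pore. Every receptor contains GluN1, from Grin1, joined by GluN2 subunits that bind glutamate or GluN3 subunits that bind glycine. GluN2B dominates in the young forebrain and GluN2A is added as synapses mature, so the balance of Grin2a to Grin2b is a common measure of that change. In striatum these receptors sit on projection neurons that receive cortical and thalamic input, and on interneurons.

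Ppp1r1b, which encodes the dopamine-regulated phosphatase inhibitor DARPP-32 of striatal projection neurons, stood at 750, 780 and 774 FPKM in knock-in replicates 1 to 3 and at 835, 792 and 760 FPKM in wild-type replicates 1 to 3. On average Ppp1r1b was lower in knock-in, at 768 FPKM against 796 FPKM in wild type. The 10 projection neuron markers examined summed to 2763 to 3063 FPKM in knock-in and to 2769 to 2894 FPKM in wild-type libraries. Of the 10, 8 were on average higher in knock-in and 2 lower, with 0 called. The titles give male animals, yet Xist, the RNA made from the inactive X chromosome, was present in all libraries, at 27.2 to 39.3 FPKM in knock-in and 31.4 to 33.0 FPKM in wild type. The Y-linked genes Ddx3y and Eif2s3y had no row in the table used here. Cortical marker levels differed between libraries. Slc17a7, for the vesicular glutamate transporter of cortical excitatory cells, stood at 29.9, 25.2 and 3.41 FPKM in knock-in replicates 1 to 3 and at 11.0, 3.55 and 2.73 FPKM in wild-type replicates 1 to 3. The 10 cortical markers together summed to 103, 87.8 and 52.3 FPKM in knock-in and to 67.8, 50.0 and 49.7 FPKM in wild-type libraries. Knock-in replicates 1 and 2 had the highest cortical marker levels and wild-type replicate 1 the next. Markers of oligodendrocytes ran the other way, with 7 of 7 tested markers of myelinating cells and 7 of 7 of their precursors on average lower in knock-in and 0 called, and the myelinating list was lowest in knock-in replicate 3, at a sum of 2317 FPKM against 2718 to 3273 FPKM elsewhere. The 6 ependymal or choroid plexus markers summed to 25.9, 32.0 and 16.7 FPKM in knock-in replicates 1 to 3. In wild-type replicates 1 to 3 they summed to 38.3, 397 and 33.4 FPKM. Of the 5 tested, 5 were on average lower in knock-in and 0 higher, with 0 called. Lrrk2 itself, whose message a point change leaves in place, averaged 11.9 ± 0.579 FPKM in knock-in and 11.3 ± 0.625 FPKM in wild type (SD, n = 3 each). These are bulk samples, in which fewer cells of a type and less RNA per cell cannot be told apart.

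The 7 genes lie on 7 chromosomes, and all positions are those of GENCODE M21 on GRCm38. Grin2b spans 460279 bases of chromosome 6, from 135713233 to 136173511, and Grin2a spans 427663 bases of chromosome 16, from 9567898 to 9995560. Grin3a lies on chromosome 4 from 49661611 to 49845744. The others are compact. Grin1 lies on chromosome 2 from 25291181 to 25319187, Grin2c on chromosome 11 from 115249169 to 115267243, Grin2d on chromosome 7 from 45831883 to 45878378, and Grin3b on chromosome 10 from 79970715 to 79977190. Grin3b is the single member on the plus strand.

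Promoter sequences from RefSeq on GRCm38.p6 matched 4 of the 7 genes, Grin1, Grin2c, Grin2d and Grin3b. The 250 bases before the RefSeq start of transcription are printed for the member with the highest level and the member with the lowest. These also hold the most and the fewest CG dinucleotides of the 4 windows matched. Each is given 5′ to 3′ on the strand of the gene, with every CG dinucleotide, the base pair step that DNA methylation acts on, in capitals.
Grin1, chr2:25319188-25319437, minus strand: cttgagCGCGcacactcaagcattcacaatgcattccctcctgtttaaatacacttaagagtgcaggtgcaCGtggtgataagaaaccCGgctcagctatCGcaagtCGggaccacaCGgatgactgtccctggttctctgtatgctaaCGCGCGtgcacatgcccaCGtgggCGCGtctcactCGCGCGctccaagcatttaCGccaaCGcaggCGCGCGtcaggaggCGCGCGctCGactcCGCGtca
Grin3b, chr10:79970474-79970723, plus strand: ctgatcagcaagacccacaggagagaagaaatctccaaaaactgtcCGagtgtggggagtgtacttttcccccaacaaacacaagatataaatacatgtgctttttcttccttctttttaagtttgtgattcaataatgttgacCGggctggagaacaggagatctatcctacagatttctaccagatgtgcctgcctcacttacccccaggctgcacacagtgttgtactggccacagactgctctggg
The Grin1 window holds 27 CG and is 58.8% G and C, and 8.56% of 32851 such windows upstream of annotated starts hold at least as many CG. The Grin3b window holds 2 CG and is 46.0% G and C, and 81.2% of windows hold at least as many. Grin2c, with 15 CG and 68.8% G and C, and Grin2d, with 9 CG and 54.4% G and C, lie between them in CG count, and the median window holds 6. The Grin2d window, chr7:45866682-45866931, precedes a RefSeq start that lies inside the GENCODE span of the gene, 45831883 to 45878378. It is therefore not upstream of the GENCODE start. The Grin3b window ends at 79970723, just past the GENCODE start at 79970715. At least 1 CG was present in 92.1% of windows. The order of the 4 genes by CG count, Grin1, Grin2c, Grin2d and Grin3b, is also their order by level in the libraries, a description over 4 genes only.

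Levels of the 7 messages in FPKM covered a wide range. Comparisons between genes rest on the transcript lengths used for FPKM, which are not given here. Grin1, for the subunit every receptor needs, was the highest, at 33.9, 30.7 and 32.1 FPKM in knock-in replicates 1 to 3 and 32.1, 32.8 and 32.9 FPKM in wild-type replicates 1 to 3. It varied least of the 7 across the libraries, with a coefficient of variation of 3.37%, and its mean of 32.4 FPKM exceeded that of 93.9% of genes in the table. Its values in the genotypes overlapped, with the highest and the lowest library both from knock-in.

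Grin2b, for the GluN2 subunit typical of the young forebrain, measured 13.5, 11.3 and 15.7 FPKM in knock-in replicates 1 to 3 and at 12.3, 14.8 and 13.9 FPKM in wild-type replicates 1 to 3. The knock-in libraries lay on both sides of the wild-type range. Grin2a, for the GluN2 subunit of more mature synapses, was at 3.69, 3.10 and 3.78 FPKM in knock-in and at 3.06, 3.57 and 3.33 FPKM in wild-type replicates 1 to 3. Both genes were low in knock-in replicate 2 and wild-type replicate 1 and highest in knock-in replicate 3, and their log2 levels correlated at 0.85 over the 6 libraries, which share tissue and processing.

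Grin2c, for a GluN2 subunit known mainly from cerebellar granule cells, thalamus and astrocytes, stood at 14.2, 15.0 and 12.2 FPKM in knock-in replicates 1 to 3 and at 12.3, 14.7 and 12.9 FPKM in wild-type replicates 1 to 3. Its mean over all libraries, 13.6 ± 1.25 FPKM, did not differ from that of Grin2b, 13.6 ± 1.59 FPKM, beyond their spread (SD, n = 6), and Grin2b was the higher of the pair in 3 of 6 libraries. The 4 thalamic neuron markers with a row summed to 5.37 to 6.72 FPKM in knock-in and 4.23 to 6.32 FPKM in wild type, of which Slc17a6, the vesicular glutamate transporter of these cells, made 0.0751 to 0.688 FPKM in knock-in and 0.127 to 0.289 FPKM in wild type. The astrocyte water channel gene Aqp4 was at 14.1 to 17.3 FPKM in knock-in and 14.4 to 16.0 FPKM in wild type, and 8 astrocyte markers summed to 435 to 514 FPKM in knock-in and 482 to 531 FPKM in wild type. Of the 8, 6 were on average lower in knock-in and 2 higher, with 0 called. Aqp4 averaged 15.5 FPKM in knock-in and 15.3 FPKM in wild type. Knock-in replicate 3 had the lowest Grin2c, the lowest Aqp4 and the lowest astrocyte sum, and knock-in replicate 2 the highest Grin2c and the highest Aqp4. The highest astrocyte sum, 531 FPKM, was that of wild-type replicate 1, whose Grin2c of 12.3 FPKM was the next to lowest. The part of astrocyte RNA in the Grin2c level was not tested.

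Grin2d, for the GluN2 subunit found in interneurons, measured 1.72, 1.68 and 1.38 FPKM in knock-in replicates 1 to 3 and at 1.76, 1.79 and 1.75 FPKM in wild-type replicates 1 to 3. All 3 knock-in values lay below all 3 wild-type values, by 0.0216 FPKM at the nearest pair of libraries. Among genes averaging 1 FPKM or more, 9.51% showed no overlap of the groups in either direction and 6.58% with knock-in lower. Knock-in replicate 3 stood well below the rest. The 9 interneuron markers examined summed to 416, 465 and 380 FPKM in knock-in and to 460, 379 and 407 FPKM in wild-type replicates 1 to 3. Of the 9, 6 were on average higher in knock-in and 3 lower, with 0 called. Pvalb, the calcium-binding protein of fast-spiking interneurons, was lowest in knock-in replicate 3, at 13.4 FPKM, with 15.7 to 26.9 FPKM elsewhere. On average Pvalb was higher in knock-in, at 21.0 FPKM against 17.8 FPKM in wild type. The part of interneuron RNA in the Grin2d level was not tested.

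The GluN3 genes had the lowest FPKM of the 7. Grin3a, for a glycine-binding subunit that lowers calcium entry and is most abundant in early postnatal brain, was at 1.47, 1.47 and 1.15 FPKM in knock-in and at 1.23, 1.22 and 1.35 FPKM in wild-type replicates 1 to 3. It was highest in knock-in replicates 1 and 2, the libraries with the highest cortical markers, and lowest in knock-in replicate 3. Wild-type replicate 3, with the lowest cortical markers, had the highest Grin3a of the wild-type libraries. Grin3b, known mainly from motor neurons, stood at 0.195, 0.249 and 0.204 FPKM in knock-in and at 0.158, 0.185 and 0.117 FPKM in wild-type replicates 1 to 3. All 3 knock-in values lay above all 3 wild-type values, at levels below those of most genes in the table, 16.8% of which had a lower mean. Over the whole table, 10.4% of genes showed no overlap of the groups in either direction and 3.32% with knock-in higher.

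**Figure D1:**
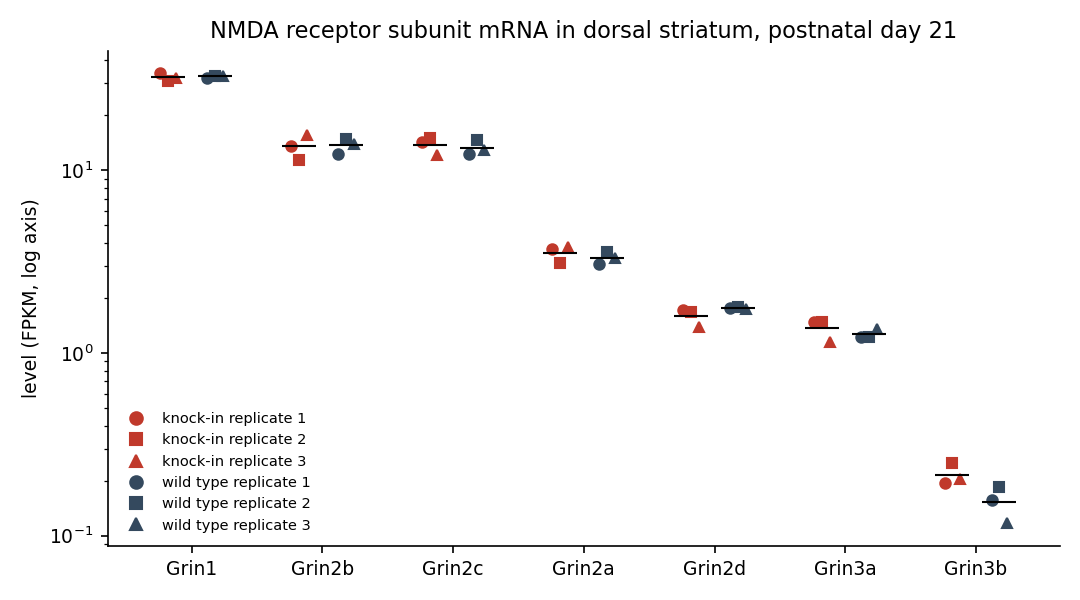
FPKM of each NMDA receptor subunit gene (log axis) in the 3 knock-in libraries (red, left of each pair) and the 3 wild-type libraries (dark blue, right), with group means as bars. Grin1 leads at 32.4 FPKM on average, Grin2b and Grin2c share the next place at 13.6 FPKM each, and Grin3b is lowest at 0.184 FPKM. The order of genes in FPKM rests on transcript lengths that are not given here.

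In order of mean level the genes ran Grin1, Grin2b, Grin2c, Grin2a, Grin2d, Grin3a and Grin3b. Grin1 exceeded Grin2b 2.39-fold, Grin2c exceeded Grin2a 3.96-fold and Grin2a exceeded Grin2d 2.04-fold, with no overlap over the 6 libraries in any of these pairs. Grin2d exceeded Grin3a in each of the 6 libraries, but their ranges over the libraries overlapped. Grin3a exceeded Grin3b 7.13-fold. The annotated exon bases differ widely, at 24842 for Grin2b, 17933 for Grin2a and 5037 for Grin2c. The transcript lengths used for FPKM are not given here, so the order and the folds are no counts of messages.

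Several of these values rest on exons shared with RNA from the other strand, and the strand setting of the authors' counting is not given in the sources used here, so reads of such a pair may not have been told apart. Grin1 shares 1307 of its 9700 exon bases with the antisense RNA gene Grin1os, which was at 28.2 ± 1.90 FPKM in knock-in and 28.2 ± 0.703 FPKM in wild type (SD, n = 3 each). Grin1os stood at 0.853 to 0.893 times Grin1 in knock-in libraries and at 0.855 to 0.879 times Grin1 in wild-type libraries. For Grin3b the overlap is 1059 of 3296 exon bases, with Tmem259, a protein-coding gene at 23.3 ± 1.97 FPKM in knock-in and 24.0 ± 0.0926 FPKM in wild type. Grin2d shares 643 of 6658 exon bases with the antisense gene Gm45441, at 6.02, 7.12 and 6.18 FPKM in knock-in and 7.48, 6.84 and 6.70 FPKM in wild-type replicates 1 to 3. Grin2a and Grin3a share no exon bases with another annotated gene, Grin2b shares 278 of 24842 and Grin2c shares 91 of 5037.

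The make-up of the GluN2 messages was then compared, as a share of the summed FPKM of Grin2a, Grin2b, Grin2c and Grin2d in the same library. A share of FPKM also rests on the transcript lengths used and is no share of message number. Grin2b took 40.8%, 36.3% and 47.5% in knock-in replicates 1 to 3, against 41.8%, 42.4% and 43.6% in wild-type replicates 1 to 3. Grin2c took 42.9%, 48.3% and 36.8% in knock-in, against 41.8%, 42.2% and 40.5% in wild type. The make-up was thus much alike in the 3 wild-type libraries, while knock-in replicate 2 was rich in Grin2c and knock-in replicate 3 in Grin2b. Grin2a took 10.9% ± 0.787 in knock-in and 10.4% ± 0.0911 in wild type, and Grin2d took 4.93% ± 0.646 in knock-in and 5.53% ± 0.415 in wild type (SD, n = 3 each).

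**Figure D2:**
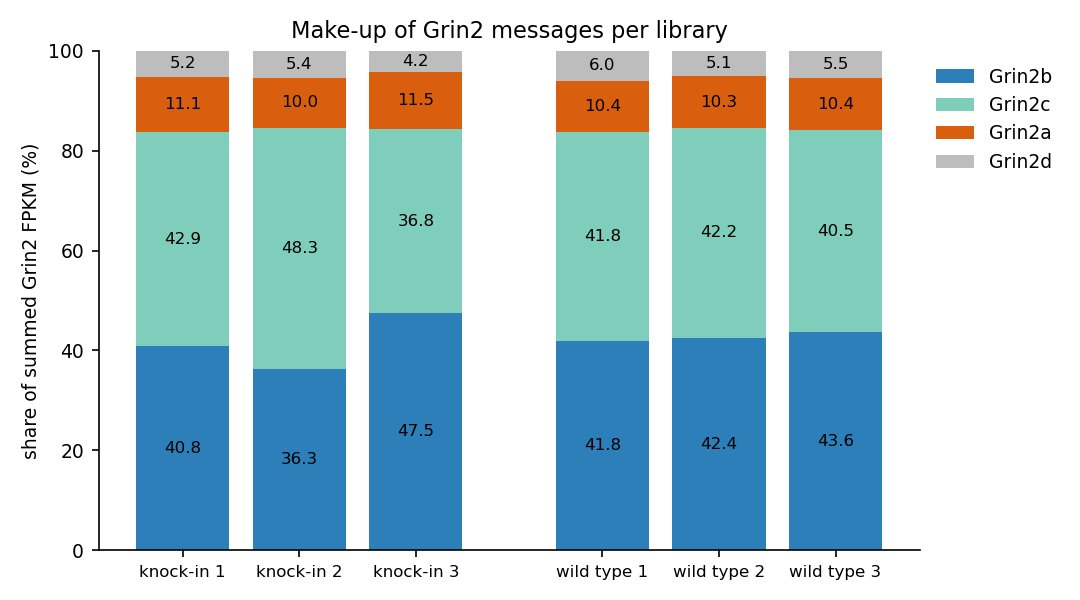
Share of the summed Grin2 FPKM (percent) taken by each of the 4 genes in each library, knock-in libraries on the left and wild-type libraries on the right. Grin2c runs between 36.8% and 48.3% in knock-in and between 40.5% and 42.2% in wild type, and Grin2a is close to 10% in every library shown, between 9.97% and 11.5%.

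The ratio of Grin2a to Grin2b asked whether the knock-in changed the balance of the mature to the juvenile GluN2 message. The ratio was 0.272, 0.274 and 0.242 in knock-in replicates 1 to 3, against 0.248, 0.242 and 0.239 in wild-type replicates 1 to 3. Knock-in replicates 1 and 2 lay above every wild-type library, and knock-in replicate 3 lay within the wild-type range. The mean ratio was 0.263 ± 0.0184 in knock-in and 0.243 ± 0.00478 in wild type (SD, n = 3 each), a 1.08-fold difference with a 95% interval from 0.959 to 1.22. In an exact permutation test over the samples, two-sided, the log2 difference of 0.11 gave p = 0.2 (p = 0.6 after Benjamini-Hochberg adjustment over the 3 ratios tested), where 3 against 3 samples can give no p under 0.1. The difference did not pass the test, and the interval leaves room for a ratio higher in knock-in as well as for none.

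The ratio ran with the cortical marker across the libraries. The libraries with the highest Slc17a7, knock-in replicates 1 and 2, had the highest ratios. Wild-type replicate 1, next in Slc17a7 at 11.0 FPKM, had the next ratio, and the 3 libraries with Slc17a7 between 2.73 and 3.55 FPKM had ratios between 0.239 and 0.242. With the mean log2 level of the 10 cortical markers in a linear model beside genotype, the log2 difference of the ratio was 0.03 in place of 0.11. Both libraries with the highest cortical markers were knock-in, so the part of cortical RNA in the ratio and that of genotype cannot be told apart. Among the 6 cortical markers with a mean of at least 1 FPKM, 6 were on average higher in knock-in and 0 were called.

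**Figure D3:**
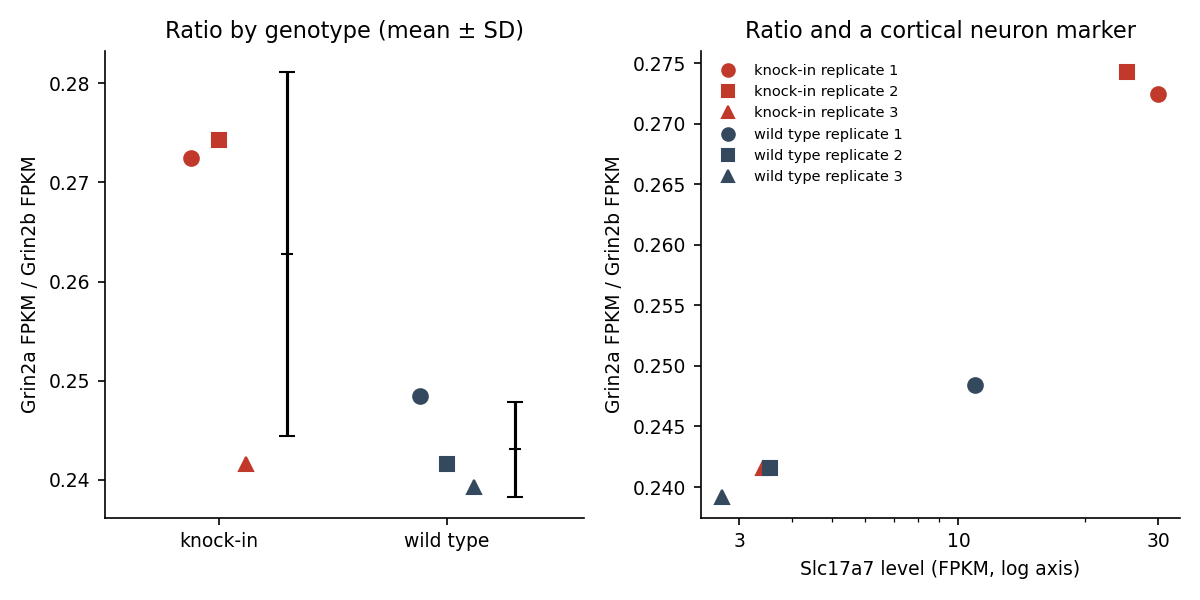
Left, the ratio of Grin2a to Grin2b FPKM in each library by genotype, knock-in on the left, with mean ± SD (n = 3 each) beside the points. Right, the same ratio against the FPKM of the cortical marker Slc17a7 (log axis), where the 2 libraries above 20 FPKM have ratios of 0.272 and 0.274 and the other 4 have ratios from 0.239 to 0.248.

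A pair of broader balances was also compared. The summed Grin2 level relative to Grin1 was 0.978, 1.02 and 1.03 in knock-in replicates 1 to 3 and 0.917, 1.06 and 0.968 in wild-type replicates 1 to 3. The summed FPKM of the Grin2 genes was thus close to the FPKM of Grin1 in both genotypes. Levels of different genes in FPKM rest on the transcript lengths used, which are not given here, and Grin1 shares exon bases with Grin1os. The ratio is therefore no count of subunit messages. The log2 difference was 0.04, with 95% limits of the fold at 0.907 and 1.16 (p = 0.6 in an exact permutation test, two-sided, and p = 0.8 adjusted over the 3 ratios). The 7 NMDA receptor genes summed to 66.3 ± 2.62 FPKM in knock-in and 66.1 ± 3.04 FPKM in wild type, against 127 ± 8.20 FPKM in knock-in and 125 ± 1.94 FPKM in wild type for the 4 AMPA receptor genes Gria1 to Gria4 (SD, n = 3 each). The NMDA sum was 0.557, 0.525 and 0.487 times the AMPA sum in knock-in replicates 1 to 3, and 0.497, 0.554 and 0.540 times in wild-type replicates 1 to 3. The log2 difference of this ratio was -0.02, with 95% limits of the fold at 0.856 and 1.13 (p = 0.8 in an exact permutation test, two-sided, and p = 0.8 adjusted).

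Single genes were compared on the scale of log2(FPKM + 1), a scale on which changes of low genes look smaller than they are, in a limma model fitted to all 14156 genes averaging 1 FPKM or more, with Benjamini-Hochberg adjustment over all of them. Of the 7 members, 6 passed this minimum and Grin3b did not. Of the 6, 0 were called at an adjusted p under 0.05, beside 3 of all genes tested (0.0212%), and 0 had an unadjusted p under 0.05, beside 4.27% of all genes tested. Grin2a, Grin2c and Grin3a were on average higher in knock-in and Grin1, Grin2b and Grin2d on average lower, and no difference passed the test. The median log2 difference over the 6 was 0.016, against -0.014 over all genes tested.

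For Grin1 the log2 difference was -0.02 (SE 0.06), with 95% limits of the fold at 0.898 and 1.09. The limits given for single genes are folds of FPKM + 1, so for low genes they are narrower than limits of the FPKM fold. The interval for Grin2a ran from 0.913 to 1.20, around a log2 difference of 0.07 (SE 0.08). Grin2b was measured less tightly, with a log2 difference of -0.02 (SE 0.12) and an interval from 0.814 to 1.19. That interval leaves room for a change of Grin2b in either direction as well as for none.

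The other tested members gave similar intervals, also for the fold of FPKM + 1. The log2 difference of Grin2c was 0.05 (SE 0.10), with an interval of the fold from 0.886 to 1.21. Grin3a had a log2 difference of 0.06 (SE 0.08) and an interval from 0.917 to 1.19. Adjusted p was 0.997 in limma for each of the 6 genes. With the cortical markers as a covariate the differences of Grin2b, Grin2c and Grin3a changed sign, to 0.13, -0.03 and -0.02, and that of Grin2a was 0.13. With 1 library left out, the difference of Grin2a ran from 0.02, without wild-type replicate 1 or knock-in replicate 3, to 0.14, without knock-in replicate 2.

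Grin2d had the smallest p of the 6 tested members (unadjusted p = 0.249 and adjusted p = 0.997 in limma). Its log2 difference was -0.09 (SE 0.07), with an interval of the fold of FPKM + 1 from 0.832 to 1.06. The ratio of its mean FPKM, knock-in over wild type, was 0.905, and with 0.1 added in place of 1 the log2 difference was -0.14. Grin2d was the 1 tested member whose groups did not overlap, where 9.51% of all genes tested showed no overlap in either direction and 6.58% with knock-in lower. Its log2 difference was -0.03 when knock-in replicate 3 was left out and -0.13 when replicate 1 of that genotype was. With the cortical markers as a covariate it was -0.17 (unadjusted p = 0.0600 and adjusted p = 0.497 in limma). Grin3b could be fitted only with no minimum level, over 23067 genes. Its mean was 0.216 ± 0.0291 FPKM in knock-in and 0.153 ± 0.0340 FPKM in wild type (SD, n = 3 each), a ratio of 1.41, and limma gave a log2 difference of 0.08 that did not pass the threshold (unadjusted p = 0.0766 and adjusted p = 0.970, beside 0.0173% of these genes called and 5.12% with an unadjusted p under 0.05). In the whole table the groups did not overlap for 10.4% of genes, and for 3.32% with knock-in higher. As given above, Grin3b shares exon bases with Tmem259, and reads of the pair may not have been told apart.

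**Figure D4:**
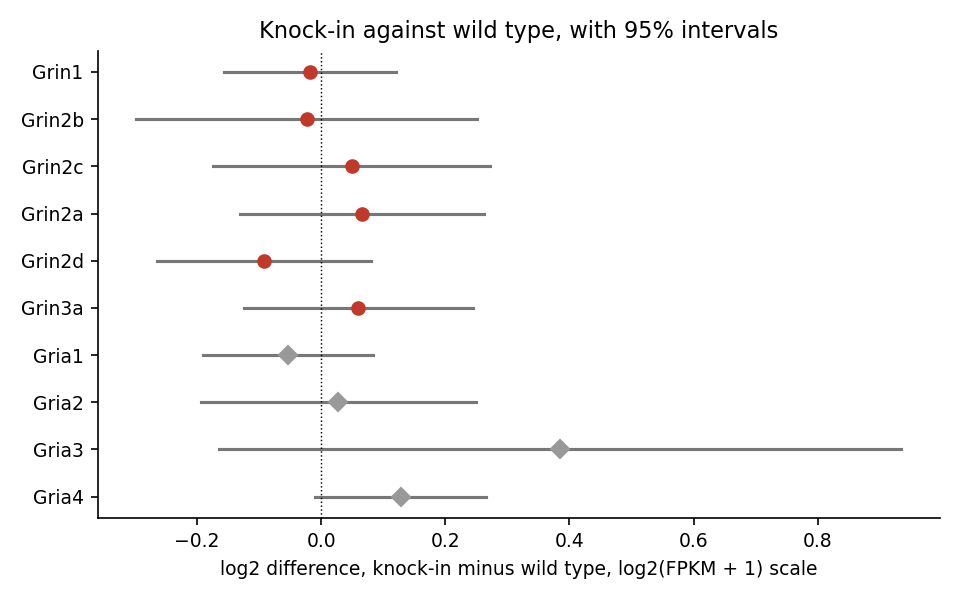
Log2 difference, knock-in minus wild type, on the log2(FPKM + 1) scale for the 6 tested NMDA receptor genes (red circles) and the 4 AMPA receptor genes (grey diamonds), with 95% intervals from limma as bars. Every interval shown crosses 0, and the NMDA receptor differences lie between -0.09 and 0.07. The AMPA receptor differences lie between -0.05, for Gria1, and 0.39, for Gria3.

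Genes around the receptor were read from the same fit, in 4 lists by role. Of 62 genes with a row, 58 were tested, and 0 were called, with 0 at an unadjusted p under 0.05, beside 4.27% of all genes tested. On average 25 were higher and 33 lower, where 43.6% of all genes tested were higher in knock-in, and 4 had groups that did not overlap, all 4 with knock-in lower, beside 6.58% of all genes tested in that direction. The scaffold and trafficking list had 17 tested genes, 8 higher and 9 lower, with a median log2 difference of -0.02. Dlg4, which encodes the PSD-95 scaffold that binds the tails of GluN2 subunits, was the highest of the list, at 187 FPKM on average in knock-in and 185 FPKM in wild type. Nefl, for the neurofilament light chain, was at 85.7, 75.1 and 71.3 FPKM in knock-in and 70.4, 68.5 and 74.0 FPKM in wild-type replicates 1 to 3. Nlgn1, for a postsynaptic adhesion protein, was at 3.68, 3.80 and 4.67 FPKM in knock-in and 3.80, 3.07 and 4.06 FPKM in wild-type replicates 1 to 3. Cask, a scaffold of the complex that carries GluN2B along dendrites, was at 5.98, 6.04 and 6.22 FPKM in knock-in and 6.23, 6.31 and 6.47 FPKM in wild-type replicates 1 to 3, groups that lay next to each other without overlap.

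The list of kinases, phosphatases and downstream signalling had 21 tested genes, 12 higher and 9 lower, with a median of 0.01. Camk2b, a calcium-calmodulin kinase subunit of the postsynaptic density, was at 124, 139 and 127 FPKM in knock-in and 143, 139 and 145 FPKM in wild-type replicates 1 to 3. Its groups did not overlap, though knock-in replicate 2 and wild-type replicate 2 were nearly equal, and its log2 difference was -0.13 (SE 0.07). Dapk1, a death-associated kinase that acts on GluN2B, was at 19.0, 17.7 and 20.3 FPKM in knock-in and 19.8, 21.0 and 22.6 FPKM in wild-type replicates 1 to 3, and these groups overlapped. Ptk2b, a kinase that acts with Src on the receptor, was at 58.2 ± 2.62 FPKM in knock-in and 63.6 ± 3.07 FPKM in wild type (SD, n = 3 each). Adjusted p was 0.997 in limma for each of the 3.

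Genes that make, remove or carry the co-agonists gave 10 tested genes, 1 higher and 9 lower, with a median of -0.04. Slc6a9, the glycine transporter GlyT1 that clears glycine near NMDA receptors, was at 7.77, 7.76 and 7.04 FPKM in knock-in and 8.41, 8.73 and 8.06 FPKM in wild-type replicates 1 to 3. Every knock-in library lay below every wild-type library, and its log2 difference of -0.14 (SE 0.06) had an unadjusted p of 0.0586 and an adjusted p of 0.997 in limma. GlyT1 is made mainly by astrocytes, and the 8 astrocyte markers were on average lower in knock-in for 6 genes and higher for 2, with 0 called; their part in the Slc6a9 level was not tested. Srr, which makes D-serine, was at 13.9 FPKM on average in knock-in and 14.1 FPKM in wild type. Psat1 and Shmt2, enzymes of serine and glycine metabolism, were at 20.5 and 7.46 FPKM in knock-in and at 21.7 and 7.78 FPKM in wild type on average.

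The last list held regulators that other work links to the change of GluN2B for GluN2A, with 10 tested genes, 4 higher and 6 lower and a median of -0.07. Sp1, a transcription factor of GC-rich promoters, was at 3.26, 3.03 and 3.22 FPKM in knock-in and 3.33, 4.05 and 3.61 FPKM in wild-type replicates 1 to 3, without overlap. Suz12, a subunit of Polycomb repressive complex 2, was at 6.33, 6.09 and 3.48 FPKM in knock-in and 6.03, 6.16 and 7.00 FPKM in wild-type replicates 1 to 3. Knock-in replicates 1 and 2 lay within the wild-type range and knock-in replicate 3 lay below it. Ezh2, the methyltransferase of the same complex, was at 1.71 ± 0.150 FPKM in knock-in and 1.87 ± 0.0460 FPKM in wild type (SD, n = 3 each). Rest, the repressor of neuronal genes, had a mean of 0.832 FPKM in knock-in and 0.950 FPKM in wild type, under the minimum tested. Adjusted p was 0.997 in limma for each of the 3 tested genes named from this list.

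**Figure D5:**
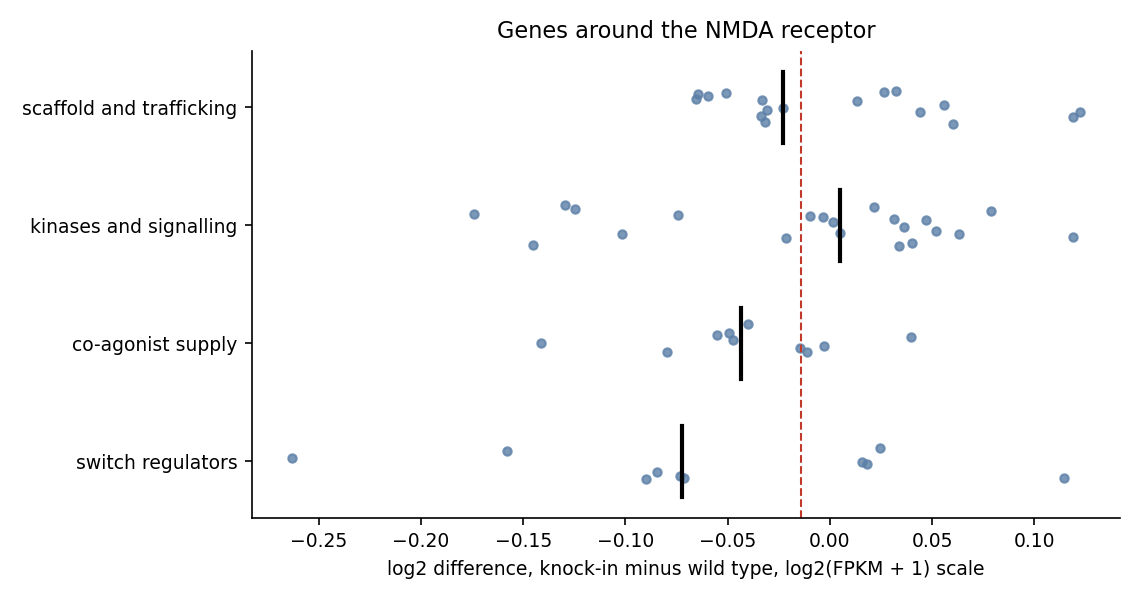
Log2 difference, knock-in minus wild type, on the log2(FPKM + 1) scale for the 58 tested genes of the 4 lists, 1 point a gene, with the median of each list as a black bar and the median of all genes tested, -0.014, as a dashed line. The points lie between -0.26 and 0.12, and the 4 list medians between -0.07 and 0.01.

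Likeness of pattern was measured as the Pearson correlation of log2(FPKM + 1) over the 6 libraries, among 7786 other genes averaging 5 FPKM or more. Grin1 was most like the noncoding RNA gene Meg3 (r = 0.992), Mapk4 (r = 0.982) and Dopey2 (r = 0.981). Grin2a was most like Atp2a2 (r = 0.986), Slc9a5 (r = 0.975) and Abcg1 (r = 0.971). Grin2b was most like Glg1 (r = 0.987), the small nucleolar RNA gene Snord91a (r = 0.987) and Trip12 (r = 0.985). Of the 7786 genes, 39 reached 0.95 for Grin2b, 10 for Grin2a and 12 for Grin1. The genes named are the top of many correlations over only 6 libraries and are given as a description.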

How the data were processed

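Messenger RNA of mouse dorsal striatum was measured in 6 libraries, 3 knock-in and 3 wild type. The authors deposited 1 table of FPKM values, per the file headers. The submitters' processing notes name HISAT2, StringTie, SAMtools and FastQC. The genome build is not given in the sources used here, nor is the annotation or the use of strand. FPKM values hold no read counts, so precision was taken from the spread between libraries, whose summed FPKM ran from 314146 to 335508. The lowest value was 1e-06 FPKM and 0 values were at 0.

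Columns were assigned to samples by the codes in the labels. On log2(FPKM + 1), limma 3.58.1 (R 4.3.3) compared the genotypes, two-sided, over genes averaging 1 FPKM or more, with eBayes set to a trended variance and robust fitting. Ratios were compared by exact permutation tests over samples (Python 3.11.15, NumPy 2.4.6). Positions and overlaps are from GENCODE M21, which matched 22972 of 23067 identifiers. The symbol Dlg2 stood on 2 rows, and the row whose identifier GENCODE gives that symbol was used.

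The genes named are all 7 members, the AMPA receptor genes, the 3 tested genes with the smallest p in each list around the receptor, the first marker of some cell types, Lrrk2, Xist, and the 3 genes most alike in pattern. Dlg4, Srr, Rest, Ddx3y, Eif2s3y and the genes that overlap members were chosen after their values were seen. Members and lists were chosen with earlier results of these data known.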

Additional observations from a re-analysis of the deposited data

How the results depend on the processing

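Of the 14 other limma settings, 0 called a member, also with no minimum level, and 0 called a gene of the 4 lists. The smallest adjusted p of a tested member was 0.497, for Grin2d with a covariate of cortical markers. The count of all genes called was 3 and ran from 3 to 14 when 1 library was left out (11, 14 and 6 when knock-in replicate 1, 2 or 3 was left out, and 8 when wild-type replicate 2 was) and from 2 to 4 otherwise.

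Differences near 0 changed sign in some settings, and the cause was not tested. Grin1 was at 0.0017 with median-of-ratios scaling and ran from -0.054 to 0.016 over the fits that left out 1 library. Those fits gave -0.13 to 0.090 for Grin2b and -0.011 to 0.13 for Grin2c. With the cortical covariate Grin2b was at 0.13, Grin2c at -0.027 and Grin3a at -0.016. The Grin2a to Grin2b log2 ratio difference ran from 0.08 to 0.17 with 1 library left out and was 0.09 with a pseudocount of 1. Grin2 sum to Grin1 ran from -0.0088 to 0.10, and NMDA to AMPA from -0.068 to 0.028, with 1 library left out. At a minimum mean of 5 FPKM, Grin2a, Grin2d and Grin3a were not fitted.

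Titles share replicate numbers, and the deviations of same-numbered libraries correlated at -0.01, -0.07 and 0.19 for pairs 1 to 3. Those of differently numbered libraries ran from -0.18 to 0.21. Deviations from the mean of so few libraries are tied together, so these correlations cannot decide on a pairing, and none was assumed. With a replicate block 2 genes were called and 0 members, and the Grin2a to Grin2b ratio difference stayed at 0.11 (higher in knock-in in 3 of 3 pairs, p = 0.25 in an exact sign-flip test, two-sided, the smallest p that 3 pairs allow). Read depth is not held by FPKM values, so counting error at Grin3b, at 0.117 to 0.249 FPKM, cannot be given.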
